A study of Mus musculus with 24 samples.

Results

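Splicing factors of 4 families were followed through the activation of mouse CD8+ T cells: SR proteins (symbols beginning with Srsf and a digit), heterogeneous nuclear ribonucleoproteins (Hnrnp, hnRNPs), proteins of the small nuclear ribonucleoproteins (Snrp, snRNPs) and subunits of the SF3a and SF3b complexes (Sf3a or Sf3b and a digit). These symbol patterns matched 49 of the 23420 genes in the files. They comprised 11 SR, 18 hnRNP, 12 Snrp and 8 SF3 genes. Of the 49, 48 passed the filter on low counts and were tested, and the exception was Snrpn, an Sm protein of brain, which stayed at or below 0.69 TPM in every library.

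Splicing removes introns from RNA on the spliceosome, which is built from snRNPs. A ring of Sm proteins, encoded by Snrp genes, surrounds the spliceosomal snRNAs other than U6 and its minor counterpart, and the SF3a and SF3b complexes help the U2 snRNP to settle on the branch point. SR proteins bind exonic enhancers and mostly favour inclusion of the exon, while many hnRNPs silence exons. T cells are known to switch isoforms on activation, the best described case being CD45, whose variable exons are silenced by hnRNP L and its relative encoded by Hnrpll.

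The libraries came from 6 mice that carried floxed Tcf7 alleles (Tcf7FL/FL) and the OTI T cell receptor transgene. Mice 1 to 3 were labelled Tcf7 cKO (E8i-cre+) and mice 4 to 6 wild type (WT, E8i-cre-). The E8i enhancer of the Cd8a locus drives cre in mature CD8+ cells, and since the WT mice lacked cre, its effects and those of the deletion cannot be told apart. CD8+ T cells were isolated with CD8 microbeads from spleen and lymph nodes, and were sampled at 0 h or after 4, 8 and 24 h on plates coated with 1 ug/mL of antibodies against CD3 and CD28 in medium with 6 ng/mL murine IL2. Stimulation, IL2 and time in culture therefore came together. Each of the 24 libraries was made with Smart-seq2 from 1000 sorted cells, so the 8 groups of genotype and time hold 3 mice each, with the same mice at every time.

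Each library held between 5846265 and 9700397 expected counts. At 0 h, Tcf7 RNA averaged 695 ± 21.0 TPM in cKO cells and 539.5 ± 35.6 TPM in WT cells (SD, n = 3 each). It was called lower in cKO at 24 h alone, at 37.2 ± 1.34 TPM in cKO against 69.4 ± 7.23 TPM in WT (log2 fold change -0.90 ± 0.13 SE, adjusted p = 2.2e-04, edgeR). Reads from the whole gene are counted, so this does not show whether the floxed exons were lost, and every genotype difference here goes by the labels. The summed TPM of 6 CD8+ T cell markers was 1260 to 1450 at 24 h against 6140 to 7150 at 0 h. Markers of CD4+ T cells, 3 in all, never summed above 1.96 TPM at either time. Markers of NK cells, 4 in all, summed to 4.74 to 11 TPM at 24 h against 285 to 387 TPM at 0 h (Ncr1 and Klre1 were at 0 in cKO at 0 h, Klrb1c in cKO at 24 h and Ncr1 in WT at 24 h). Markers of myeloid cells (6 of 7 found) summed to 1.21 to 5.23 TPM at 24 h against 2.67 to 5.12 TPM at 0 h, and 5 of dendritic cells to 5.22 to 9.66 TPM at 24 h against 2.33 to 4.37 TPM at 0 h, with 2 of each list at 0 in each genotype at 24 h. Erythroid markers (4 of 6 found) reached 21.5 TPM in cKO at 4 h and at most 6.12 TPM in every other group. The part of these cells in the changes over time was not tested. The 5 activation markers summed to 1000 to 1110 TPM at 24 h against 311 to 379 TPM at 0 h. Their sum was higher in between, at 4290 to 5430 TPM at 4 h and 2460 to 2980 TPM at 8 h. TPM measures a share of a library's RNA, so less RNA per cell cannot be told apart from fewer cells, and a change in total RNA per cell was not measured. On the first principal component of log CPM (55% of the variance), a few libraries were distant from the rest of their group: that of cKO mouse 3 at 4 h, and those of cKO mouse 2 and WT mouse 5 at 8 h.

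Promoter sequence was available for 44 of the 49 genes, as 300-base windows from RefSeq (build GRCm38.p6). Each runs from 250 bases before a start to 50 after it. Some genes had several windows at different starts, 61 in all, and a motif in any window of a gene was counted. Some of these starts lie inside the gene, as for Hnrnpf and Srsf11. The E-box CACGTG, the core site of MYC with MAX, which reads the same on both strands, was in the windows of 6 genes (13.6%), against 12.1% of the tested genes and 8.09% of all genes with a window. CCGGAA, the core letters bound by ETS family factors, searched on both strands as CCGGAA and TTCCGG, was in those of 23 genes (52.3%), against 33.2% of tested genes and 16.7% of all genes. This motif was chosen after the levels had been seen, the 2 motifs cannot share bases (though CCGGAA and TTCCGG can overlap), and a match shows letters and not binding. Of the 35 matched genes that were higher at 24 h than at 0 h in WT, 18 held CCGGAA, as did Srsf5 alone among the 3 that were lower, and 3 of the 5 that were not called (Hnrnpr, Sf3a2 and Srsf2). The 180 bases before a start are printed for 5 genes, with either motif in capitals. Snrpa is shown for the 2 E-boxes there, and Hnrnpab and Hnrnpa1 as the hnRNP genes with the largest increases. Srsf2 is shown as a gene not called between 24 h and 0 h, and Srsf5 because it fell. The bases after the start matched an annotated transcript for Snrpa and Srsf2. They did not for Hnrnpab, Hnrnpa1 and Srsf5, whose starts are therefore less certain.
Snrpa (chr7:27196272-27196451, minus strand): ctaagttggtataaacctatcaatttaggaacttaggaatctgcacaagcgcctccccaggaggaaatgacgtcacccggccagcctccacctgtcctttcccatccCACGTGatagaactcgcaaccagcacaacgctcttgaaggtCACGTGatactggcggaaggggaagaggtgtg
Hnrnpab (chr11:51606882-51607061, minus strand): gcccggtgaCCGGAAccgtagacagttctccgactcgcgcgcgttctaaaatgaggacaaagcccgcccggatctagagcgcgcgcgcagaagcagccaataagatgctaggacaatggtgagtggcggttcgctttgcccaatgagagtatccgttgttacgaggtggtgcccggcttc
Hnrnpa1 (chr15:103240217-103240396, plus strand): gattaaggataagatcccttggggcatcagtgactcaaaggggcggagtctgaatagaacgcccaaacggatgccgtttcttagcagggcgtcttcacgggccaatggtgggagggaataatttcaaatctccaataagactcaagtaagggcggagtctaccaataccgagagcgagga
Srsf2 (chr11:116853095-116853274, minus strand): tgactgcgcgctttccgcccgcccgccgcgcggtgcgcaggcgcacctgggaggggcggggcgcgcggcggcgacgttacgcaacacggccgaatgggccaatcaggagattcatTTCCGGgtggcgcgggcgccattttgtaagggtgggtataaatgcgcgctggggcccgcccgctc
Srsf5 (chr12:80945319-80945498, plus strand): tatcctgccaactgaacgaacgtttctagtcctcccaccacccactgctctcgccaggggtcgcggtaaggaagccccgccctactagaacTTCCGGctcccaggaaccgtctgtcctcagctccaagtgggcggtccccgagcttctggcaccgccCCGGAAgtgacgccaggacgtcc
Hnrnpa1, with the larger increase of the 2 hnRNP genes, held neither motif in this stretch, and Srsf5 held CCGGAA on each strand once.

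The RNA of most of these genes rose over 24 h of activation. Summed over the 49 genes, the level was 16250 ± 276 TPM in WT cells at 24 h against 8722 ± 206 TPM at 0 h. In cKO cells it was 16080 ± 186 TPM at 24 h against 9293 ± 99.0 TPM at 0 h (SD, n = 3 each). In WT, 39 of the 48 tested genes rose by 24 h and 3 fell, in edgeR's quasi-likelihood test with Benjamini-Hochberg adjustment over 11470 genes at 0.05. Over all tested genes, 36.9% were called higher and 40.1% lower in that comparison, and the median log2 fold change was -0.08, against 0.91 over the 48. In cKO, 35 rose and 4 fell, with 37.3% and 39% of all genes called. All 35 genes that rose in cKO also rose in WT (89.7% of the WT list), and the additional fall in cKO was of Hnrnpul2. The 6 genes called in neither direction in WT were Srsf2, Hnrnpr, Hnrnph2, Hnrnpul1, Hnrnpul2 and Sf3a2.

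**Figure D1:**
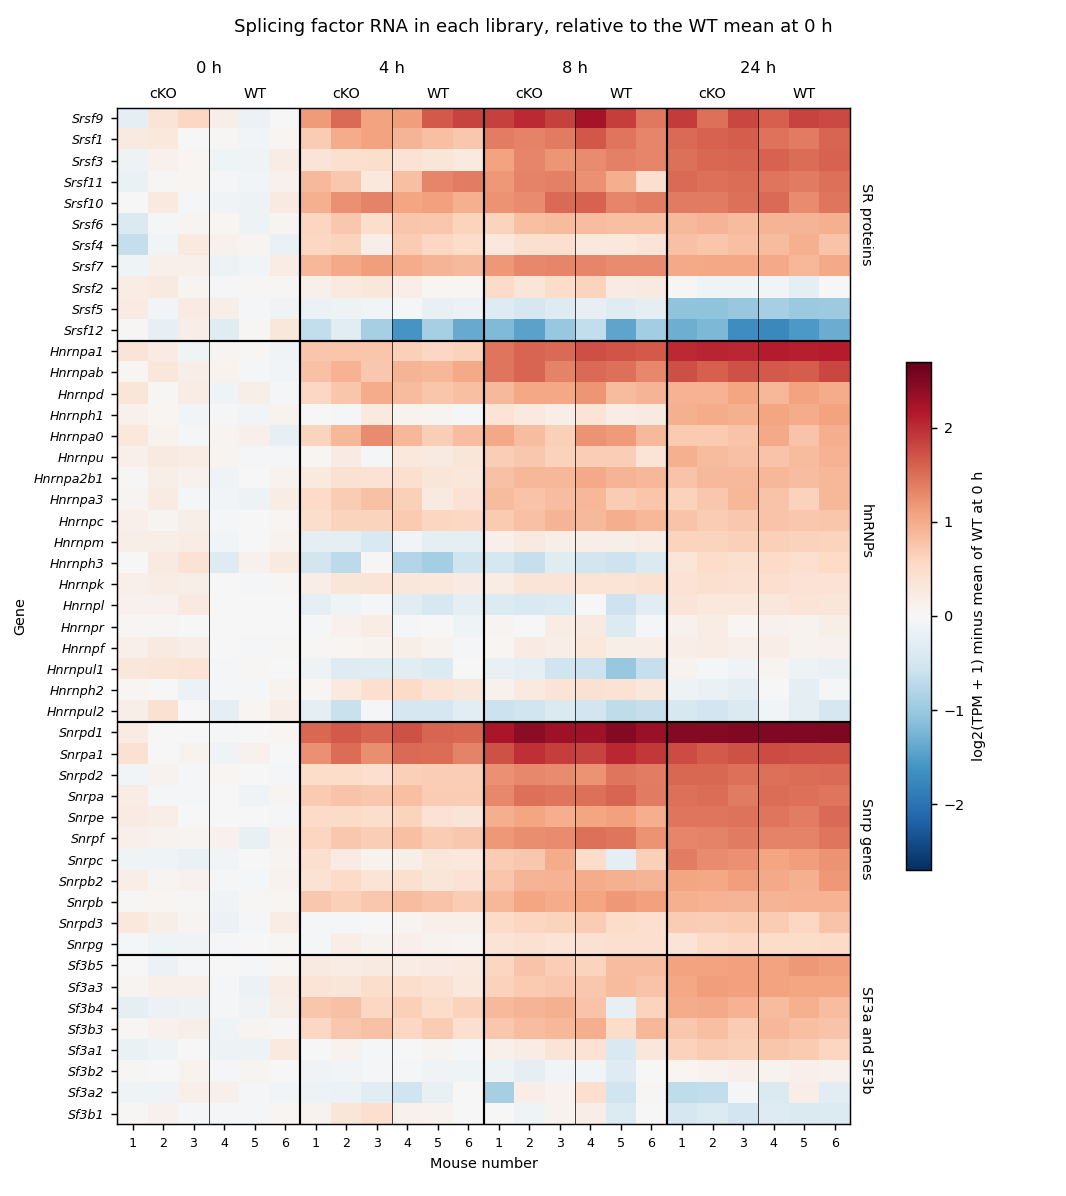
Level of each of the 48 tested genes (rows, by family and by their change in WT) in each of the 24 libraries (columns, by time, genotype and mouse), as log2(TPM + 1) minus the mean of WT at 0 h. Red is higher and blue lower than that mean: most rows redden by 24 h in cKO and WT alike, and Srsf5, Srsf12 and Sf3b1 turn blue.

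The rise was under way at 4 h. In WT, 31 genes were higher and 3 lower at 4 h than at 0 h (all genes, 30% and 29.1%), and 38 were higher and 4 lower at 8 h (all genes, 33.4% and 34%). In cKO the counts were 30 higher and 4 lower at 4 h (29.6% and 27.6%), and 36 higher and 6 lower at 8 h (33.1% and 32.4%). These comparisons share their 0 h libraries with each other and with that at 24 h. Between neighbouring times, 27 genes were higher and 1 lower at 8 h than at 4 h in WT (21.9% and 19.7% of all genes), and 26 higher and 3 lower in cKO (20.8% and 19.6%). At 24 h, 13 genes were higher and 10 lower than at 8 h in WT (24.7% and 34.1%), and 13 higher and 5 lower in cKO (25.2% and 32.1%). Without the 3 libraries that lay apart these were 16 and 7 in WT and 18 and 5 in cKO. The number of calls and their split depend on the scaling. With library totals in place of TMM, 26 were higher and 6 lower at 24 h than at 8 h in WT, and 26 and 4 in cKO. For the change to 4 h this scaling gave 28 higher and 7 lower in WT, with 25 higher and 10 lower in cKO, and for 8 h over 4 h in cKO it gave 33 higher and 0 lower. It moved the median of all genes to 0.06, against -0.12 with TMM, for 24 h over 8 h in WT, and to -0.21, against -0.04 with TMM, for 4 h over 0 h in WT. The highest group mean in WT was at 24 h for 27 of the 48 genes, at 8 h for 15, at 4 h for 2 and at 0 h for 4. Of all tested genes, 31% were highest at 24 h, 14.2% at 8 h, 16.1% at 4 h and 38.7% at 0 h. In cKO the counts were 29, 10, 3 and 6, with 31%, 13.3%, 18.3% and 37.4% of all tested genes.

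**Figure D2:**
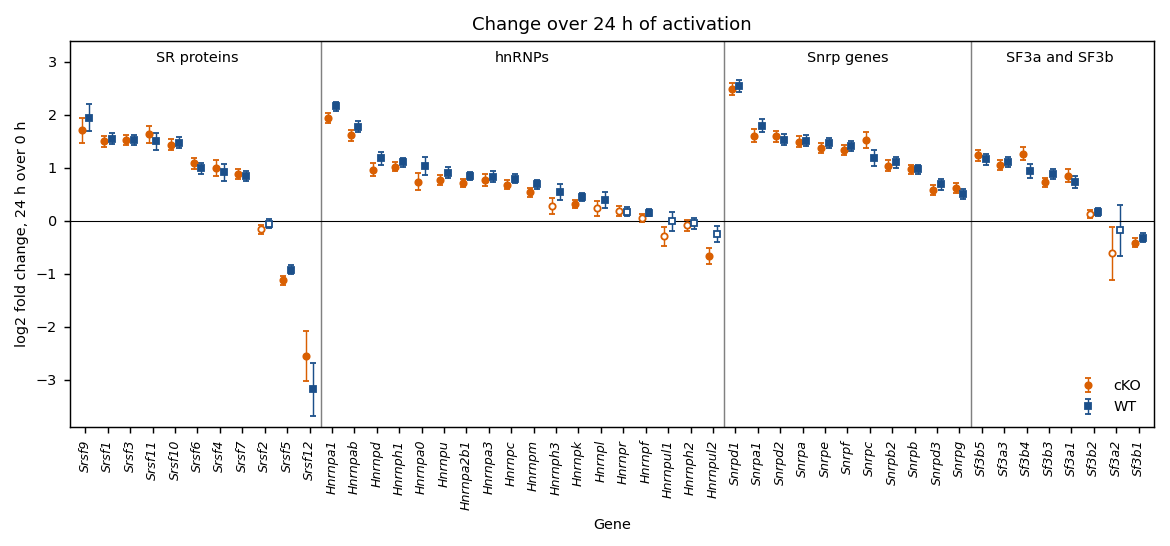
Fitted log2 fold change of the 48 tested genes at 24 h over 0 h, in cKO (orange circles, left of each pair) and WT (blue squares), with bars of 1 SE and filled symbols for an adjusted p under 0.05. All 11 tested Snrp genes lie above 0 in both genotypes, between 0.50 and 2.55, and Srsf5 and Srsf12 are the lowest.

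The Sm ring genes rose together. All 7 tested Sm genes (Snrpb, Snrpd1, Snrpd2, Snrpd3, Snrpe, Snrpf and Snrpg) were higher at 24 h in both genotypes, with a median log2 fold change of 1.41 in WT and 1.33 in cKO. They summed to 5582 ± 134 TPM in WT at 24 h against 2557 ± 52.1 TPM at 0 h. Snrpd1, which encodes SmD1, had the largest increase of the 48 genes. It had 627, 622 and 638 TPM in the 3 WT mice at 24 h, against 106, 109 and 114 TPM at 0 h (log2 fold change 2.55 ± 0.11 SE, adjusted p = 1e-21, edgeR). In cKO mice it had 613, 620.4 and 626 TPM at 24 h against 127, 110.3 and 111 TPM at 0 h (2.49 ± 0.11, adjusted p = 1.5e-21). Every 24 h library lay above every 0 h library. Such a lack of overlap, here and in the genes below, was common. In CPM and in either direction, it held for 80.9% of all tested genes in WT and 79.2% in cKO. Most of the rise of Snrpd1 was present at 8 h, when the means were 546 ± 40.7 TPM in cKO and 569 ± 41.9 TPM in WT.

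Snrpd2, whose protein pairs with SmD1 in the ring, had 647, 651 and 666 TPM in WT at 24 h against 236, 228 and 222 TPM at 0 h (1.53 ± 0.10, adjusted p = 3.2e-16). The cKO mice had 671, 667 and 645 TPM at 24 h against 217, 245 and 225 TPM at 0 h. Snrpg, the Sm gene with the highest level over all libraries, moved least of the ring in WT, with 1191, 1203 and 1206 TPM in WT at 24 h against 827, 857 and 863 TPM at 0 h (0.50 ± 0.09, adjusted p = 6.6e-06). Its groups did not overlap either. The proteins of the ring are used in equal numbers, but their RNA levels were not equal. In WT at 0 h the group means ran from 109.8 TPM for Snrpd1 to 849 TPM for Snrpg, a ratio of 7.73. At 24 h they ran from 256 TPM for Snrpd3 to 1345 TPM for Snrpe, a ratio of 5.24. In cKO the ratios were 6.89 at 0 h and 5.21 at 24 h. Snrpd1 took 9.88 ± 0.0914% of the summed Snrp TPM in WT at 24 h and 3.86 ± 0.0565% at 0 h. Snrpg took 18.8 ± 0.377% at 24 h and 29.8 ± 0.317% at 0 h.

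The 4 Snrp genes specific to the U1 or U2 snRNP also rose in both genotypes. Snrpa1, for the U2 protein A′, had 284, 281 and 276 TPM in WT at 24 h against 76.9, 89.8 and 82.0 TPM at 0 h (1.79 ± 0.12, adjusted p = 4.2e-15). In cKO mice Snrpa1 had 283, 264 and 275 TPM at 24 h against 111, 83.8 and 88.8 TPM at 0 h. Its WT mean was highest at 8 h, at 318 ± 22.7 TPM, and the fall to 24 h was called in WT (-0.29 ± 0.11, adjusted p = 0.0285). That call was lost in 13 of 17 alternatives, with values down to -0.10 and adjusted p up to 0.391. Snrpa, for the U1 protein A, has 2 E-boxes in the stretch shown above. It averaged 278 ± 5.71 TPM in WT at 24 h and 99.1 ± 6.43 TPM at 0 h (1.51 ± 0.10, adjusted p = 3.4e-16). Snrpc, for the U1 protein C, which helps U1 to hold the 5′ splice site, had 79.5, 83.4 and 88.8 TPM in WT at 24 h against 53.5, 31.1 and 59.6 TPM at 8 h (0.73 ± 0.15, adjusted p = 5.9e-05). The low 8 h value came from mouse 5, and without the 3 libraries that lay apart the difference was 0.55 (adjusted p = 0.00143). Snrpb2, for U2 protein B″, averaged 145 ± 10.3 TPM in WT at 24 h and 69.2 ± 4.46 TPM at 0 h.

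Among the SF3 genes, 6 of 8 rose and 1 fell by 24 h in WT, and 5 rose and 1 fell in cKO. Sf3b5, for the smallest subunit of SF3b and the SF3 gene with the highest level, had 389, 414 and 399 TPM in WT at 24 h against 180.2, 179 and 189 TPM at 0 h (1.16 ± 0.10, adjusted p = 8.5e-13). Its cKO values were 387, 389 and 392 TPM at 24 h against 181, 163 and 178 TPM at 0 h. Sf3a3, for a subunit of SF3a, had 259.6, 253 and 255 TPM in WT at 24 h against 117, 109 and 139.7 TPM at 0 h (1.11 ± 0.09, adjusted p = 3.4e-13). Sf3b4, for an RNA-binding subunit that contacts the intron near the branch point, had 70.2, 75.2 and 69.0 TPM in WT at 24 h against 36.9, 36.0 and 42.7 TPM at 0 h (0.94 ± 0.13, adjusted p = 3.6e-08). In cKO mice Sf3b4 had 78.1, 79.0 and 74.2 TPM at 24 h against 31.9, 34.6 and 35.0 TPM at 0 h (1.27 ± 0.13). In each of these genes all 24 h libraries were above all 0 h libraries of the same genotype. Over all tested genes, CPM did not overlap between these times for 80.9% in WT and 79.2% in cKO, in either direction.

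Sf3b1, the largest SF3b subunit, which closes around the branch point adenosine, went the other way. It had 101, 97.6 and 99.5 TPM in WT at 24 h against 125, 126 and 134 TPM at 0 h (-0.32 ± 0.08, adjusted p = 9.7e-04). The cKO mice had 92.9, 99.5 and 89.3 TPM at 24 h against 131, 139 and 126 TPM at 0 h (-0.41 ± 0.08, adjusted p = 4.3e-05). The groups did not overlap, but without the filter on low counts the WT value was -0.16 and was not called (adjusted p = 0.134). Between 8 and 24 h the change was -0.41 in WT and -0.49 in cKO. Before that, Sf3b1 was called higher at 4 h than at 0 h in cKO (0.35 ± 0.08, adjusted p = 6.3e-04) and lower at 8 h than at 4 h (-0.27 ± 0.08, adjusted p = 0.0102). Both of these calls were lost without mouse 3 and with library totals. The call at 8 h over 4 h was also lost without mouse 2 and without the 3 libraries that lay apart. Subunits of 1 complex thus moved in opposite directions. Sf3b3 averaged 167 ± 7.81 TPM in WT at 24 h and 93.5 ± 6.64 TPM at 0 h. Sf3b2 averaged 178 ± 2.75 TPM at 24 h and 164 ± 7.18 TPM at 0 h, and Sf3b1 99.4 ± 1.84 TPM at 24 h and 128 ± 5.02 TPM at 0 h. The increase of Sf3b2 (0.17 ± 0.08, adjusted p = 0.0403) was lost in 5 of 17 alternatives, among them those without mouse 4, 5 or 6. Sf3a1 rose between 8 and 24 h in WT (0.48 ± 0.11). It was already called higher at 8 h than at 0 h in both genotypes. In cKO that earlier call held in all 17 alternatives, at 0.33 to 0.50, and in WT it was lost in 14 of 17. Sf3a2 had under 2.7 TPM in every library and was called in no time comparison.

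Of the 11 SR genes, 8 rose by 24 h and 2 fell, in WT and in cKO. Srsf3, which encodes the smallest SR protein and a helper of mRNA export, was the most abundant over all libraries. It had 866, 819 and 861 TPM in WT at 24 h against 264, 267 and 329.5 TPM at 0 h (1.53 ± 0.09, adjusted p = 3.7e-17). In cKO mice its values were 802, 836 and 853 TPM at 24 h against 259, 308 and 296 TPM at 0 h (1.52 ± 0.09). Most of that rise lay between 4 and 8 h, where the log2 fold change in WT was 1.03 ± 0.09. Srsf1, the founding member of the family, had 60.5, 57.8 and 65.0 TPM in WT at 24 h against 21.9, 20.0 and 21.9 TPM at 0 h (1.55 ± 0.10, adjusted p = 4.2e-16).

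Srsf9 had the largest increase of the family, at low levels. It had 18.7, 21.7 and 21.0 TPM in WT at 24 h against 6.12, 4.71 and 5.42 TPM at 0 h (1.95 ± 0.25, adjusted p = 8.6e-09). The cKO mice had 22.8, 16.8 and 21.2 TPM at 24 h against 4.36, 7.09 and 8.43 TPM at 0 h. It reached 18.0 ± 4.50 TPM in WT by 4 h (1.81 ± 0.26 over 0 h, adjusted p = 1.8e-07), when it had the largest increase of the 48 genes in WT. Srsf10 and Srsf7, the zinc knuckle member, rose early as well: Srsf10 averaged 128 ± 7.05 TPM in WT at 4 h and 62.2 ± 9.60 TPM at 0 h. Srsf7 averaged 332 ± 16.1 TPM at 4 h and 174 ± 22.8 TPM at 0 h. Srsf7 was highest at 8 h and fell by 0.43 in WT and by 0.28 in cKO on the log2 scale between 8 and 24 h. The call in cKO was lost in 4 of 17 alternatives, with values down to -0.15. Srsf2, also called SC35, showed a transient rise. It averaged 158 ± 5.57, 168 ± 7.66, 203 ± 31.3 and 148 ± 12.9 TPM in WT at 0, 4, 8 and 24 h. The log2 fold change was 0.50 ± 0.09 at 8 h over 0 h (adjusted p = 4.2e-06) and -0.55 ± 0.09 at 24 h over 8 h (adjusted p = 1.3e-06).

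Srsf5 fell. It had 289, 269 and 271 TPM in WT at 24 h against 599, 518 and 508 TPM at 0 h (-0.93 ± 0.08, adjusted p = 2.7e-12). In cKO mice Srsf5 had 254, 254 and 266 TPM at 24 h against 631, 516 and 634 TPM at 0 h (-1.13 ± 0.08, adjusted p = 1.5e-14). In both genotypes the lowest 0 h library was far above the highest 24 h library. In WT most of the fall came after 8 h (-0.81 ± 0.08), and the difference at 8 h over 0 h was not called (-0.12 ± 0.08, adjusted p = 0.211). In cKO it was called at 8 h over 0 h (-0.39 ± 0.08, adjusted p = 9.5e-05), and the change from 8 to 24 h was -0.73 ± 0.08. The interaction at 8 h was not called (-0.28 ± 0.12, adjusted p = 0.58). Srsf12, an SR gene of low level, had 0.120, 0.280 and 0.490 TPM in WT at 24 h against 1.98, 2.85 and 3.64 TPM at 0 h (-3.18 ± 0.50, adjusted p = 6.2e-07). In cKO mice Srsf12 had 0.510, 0.620 and 0.180 TPM at 24 h against 2.83, 2.22 and 3.25 TPM at 0 h. The WT value ranged between -3.48 and -1.55 over the alternatives, all of them called.

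The leading SR gene therefore differed between the ends of the time course. Srsf5 made up 11.9 ± 0.341% of the summed SR TPM in WT at 24 h and 36.8 ± 3.48% at 0 h. Srsf3 made up 36.4 ± 0.0849% at 24 h and 19.4 ± 1.97% at 0 h. In cKO the shares were 11.2 ± 0.171% and 38.4 ± 4.31% for Srsf5, and 35.9 ± 0.727% and 18.6 ± 1.43% for Srsf3. Several SR genes make transcripts with a poison exon that are degraded, and counts per gene do not separate these from productive ones.

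**Figure D3:**
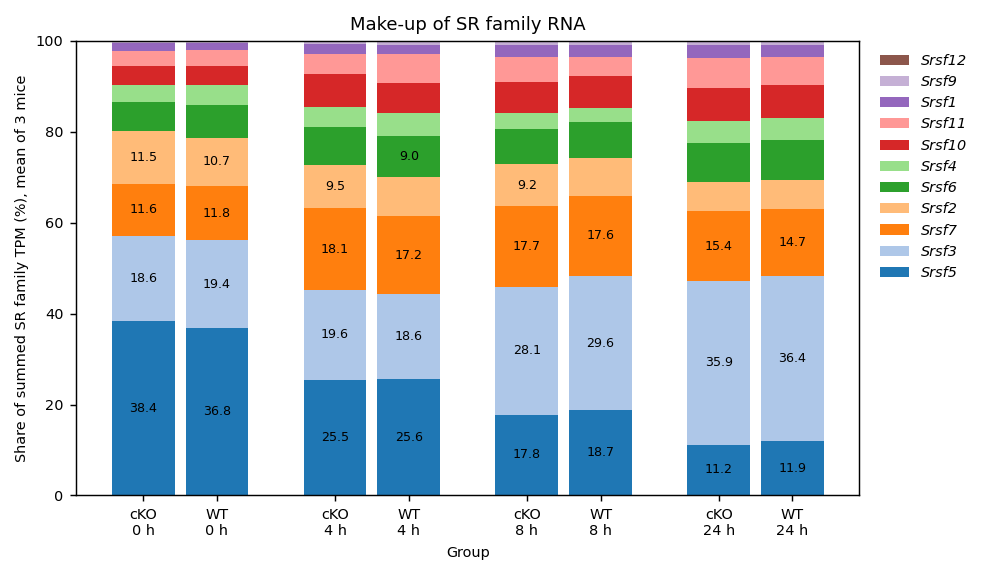
Share of each SR gene in the summed TPM of the 11 SR genes (stacked, in percent, mean of 3 mice) in cKO and WT at each time, with shares above 9% printed. Srsf5 holds 38.4% in cKO and 36.8% in WT at 0 h and is overtaken by Srsf3, which holds 35.9% in cKO and 36.4% in WT at 24 h.

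Of the 18 hnRNP genes, 14 rose by 24 h in WT and none fell, and 11 rose and 1 fell in cKO. Hnrnpa1, whose protein competes with SR proteins and silences exons, became the most abundant of all 49 genes. It had 1853, 1821 and 1862 TPM in WT at 24 h against 448, 431 and 396 TPM at 0 h (2.16 ± 0.09, adjusted p = 1.4e-21). In cKO mice Hnrnpa1 had 1706, 1780 and 1739 TPM at 24 h against 543, 492 and 393 TPM at 0 h (1.94 ± 0.09, adjusted p = 2.3e-20). It rose in each interval, by 0.70 to 4 h, 1.15 from there to 8 h and 0.31 to 24 h in WT. All 24 libraries gave this gene fractional counts, which RSEM writes where it divides reads between genes, and so did those of Hnrnpa2b1, Hnrnpa3, Hnrnpab, Hnrnpd, Hnrnph3, Hnrnpm, Snrpb and Snrpf. Of these 9 genes, 6 overlap another annotated gene, and with which genes the reads were shared was not tested.

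Hnrnpab had 135, 133 and 148 TPM in WT at 24 h against 44.8, 41.1 and 39.7 TPM at 0 h (1.78 ± 0.11, adjusted p = 1.4e-17). Its cKO values were 141, 131 and 139.6 TPM at 24 h against 43.6, 52.0 and 47.5 TPM at 0 h. Hnrnpd, whose protein AUF1 binds AU-rich elements and controls mRNA decay, had 10.9, 12.6 and 11.8 TPM in WT at 24 h against 4.98, 6.09 and 5.12 TPM at 0 h (1.18 ± 0.13, adjusted p = 1.3e-10). It averaged 10.2 ± 0.438 TPM at 4 h. In both genes the 24 h and 0 h libraries did not overlap (in CPM, 80.9% of all tested genes in WT). Hnrnpf, a G-tract binder and the hnRNP gene with the highest level over all libraries, hardly moved. It had 1279, 1197 and 1215 TPM in WT at 24 h against 1119, 1107 and 1158 TPM at 0 h (0.15 ± 0.07, adjusted p = 0.0498). The cKO mice had 1268, 1302 and 1249 TPM at 24 h against 1249, 1327 and 1270 TPM at 0 h (0.05 ± 0.07, adjusted p = 0.487). The WT call was lost in 5 alternatives: with each mouse as a block (adjusted p = 0.0516), and without mouse 1, 4, 5 or 6 (adjusted p between 0.054 and 0.134).

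The relatives of Hnrnpf took different courses. Hnrnph1 rose mainly after 8 h, averaging 104 ± 6.53, 107 ± 5.30, 126 ± 7.03 and 217 ± 6.00 TPM in WT at 0, 4, 8 and 24 h (0.68 ± 0.09 at 24 h over 8 h, adjusted p = 2.4e-08). Hnrnph2 was higher at 4 and 8 h and fell by 0.57 on the log2 scale between 8 and 24 h, with 75.6 ± 4.27, 99.9 ± 8.09, 97.3 ± 3.90 and 70.7 ± 6.33 TPM in WT at 0, 4, 8 and 24 h. Hnrnph3 did the reverse. It had 11.5, 10.5 and 13.9 TPM in WT at 4 h against 15.9, 22.5 and 24.5 TPM at 0 h (-0.72 ± 0.17, adjusted p = 3.4e-04). It had 30.0, 28.8 and 30.4 TPM at 24 h against 14.3, 13.8 and 15.6 TPM at 8 h (0.92 ± 0.16, adjusted p = 4.9e-06). In cKO it had 26.2, 29.5 and 28.1 TPM at 24 h against 14.6, 13.0 and 16.2 TPM at 8 h (0.90 ± 0.16).

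Hnrnpl, the silencer of CD45 exons, had 14.9, 14.1 and 14.1 TPM in cKO at 24 h against 8.61, 8.44 and 8.63 TPM at 8 h (0.70 ± 0.15, adjusted p = 1.8e-04). The WT mice had 14.3, 15.1 and 14.6 TPM at 24 h against 11.4, 7.42 and 9.29 TPM at 8 h (0.56 ± 0.15, adjusted p = 0.00167). At 0 h Hnrnpl averaged 12.96 TPM in cKO and 11.48 TPM in WT. In cKO Hnrnpl was called lower at 8 h than at 0 h, a call lost without mouse 3. At 24 h over 0 h Hnrnpl was called higher in WT only, and that call was lost without mouse 5 (adjusted p = 0.0674, edgeR). Its relative Hnrpll, outside the 49, averaged 29.2 ± 4.84 TPM in WT at 24 h and 2.38 ± 0.595 TPM at 0 h (3.67 ± 0.22, adjusted p = 2.5e-15). Hnrnpc, which binds uridine tracts, Hnrnpu, a nuclear scaffold protein, and Hnrnpk, which binds C-rich RNA, rose by 0.80, 0.91 and 0.45 in WT at 24 h over 0 h. Hnrnpul1 and Hnrnpul2, relatives of Hnrnpu of under 11 TPM, were lower in the first hours. Hnrnpul1 had 4.24, 2.76 and 4.03 TPM in WT at 8 h against 6.55, 6.91 and 6.61 TPM at 0 h (-0.71 ± 0.20, adjusted p = 0.00177). Hnrnpul2 had 4.84, 5.07 and 5.68 TPM in cKO at 8 h against 8.81, 10.6 and 7.87 TPM at 0 h (-0.69 ± 0.16, adjusted p = 2.2e-04). Hnrnpr was called in no comparison of 24 h with 0 h, at 0.19 in cKO and 0.17 in WT.

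**Figure D4:**
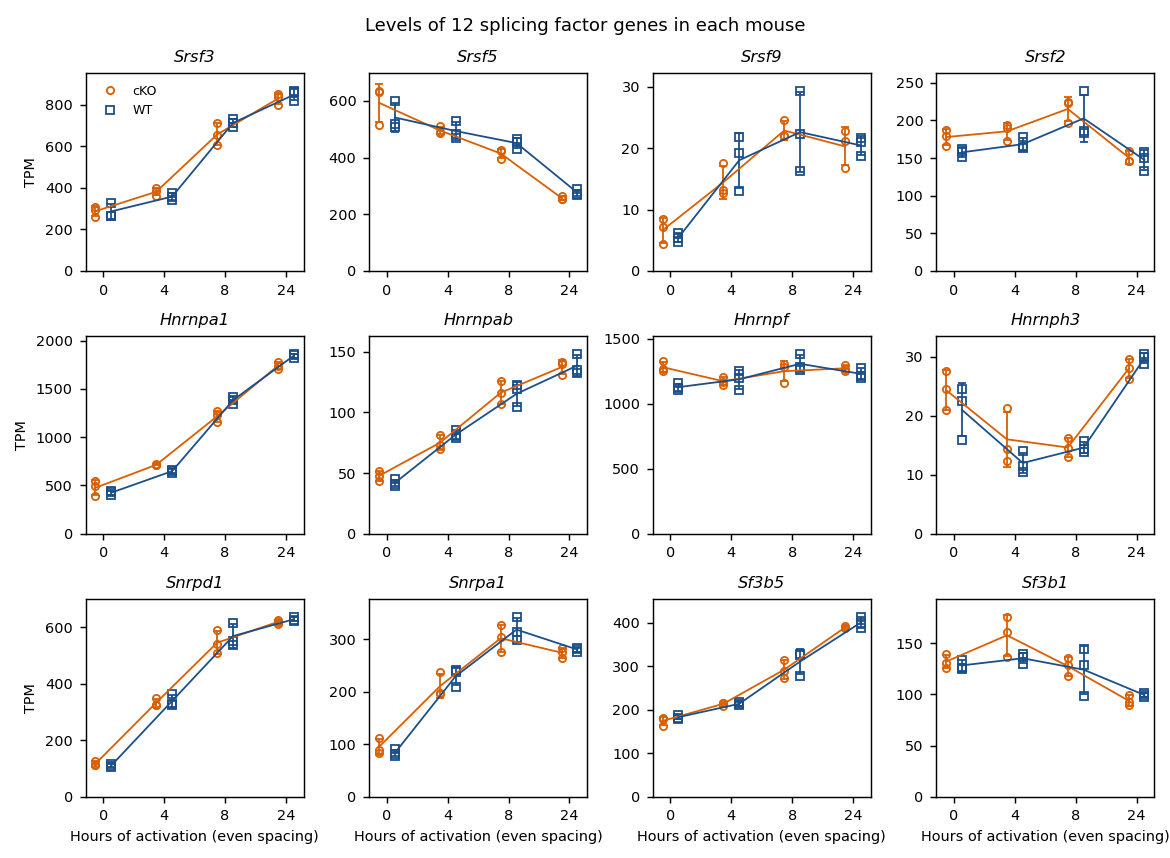
TPM of 12 genes in each mouse (open symbols) at 0, 4, 8 and 24 h, with the mean and SD of 3 mice, for cKO (orange circles) and WT (blue squares). The times are spaced evenly on the axis. Snrpd1 and Hnrnpa1 climb throughout, Srsf2 and Snrpa1 peak at 8 h, Hnrnph3 dips, and Srsf5 and Sf3b1 end lower than they began.

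Other parts of the splicing machinery were counted from lists of related genes. Of 19 genes for the SMN complex, which loads Sm rings on snRNAs, and for Sm methylation and snRNP import, 18 rose by 24 h in WT and none fell, with a median log2 fold change of 1.47, and the same counts held in cKO. Examples were Gemin5 at 2.19 ± 0.11, Wdr77, a partner of the methyltransferase PRMT5, at 1.96 ± 0.10, and Gemin6 at 2.64 ± 0.14. All 8 genes of the LSm rings, which bind U6 or take part in mRNA decay, rose in both genotypes (median 1.65 in WT), among them Lsm2 at 2.42 ± 0.11. The list for the U1, U4/U6, U5 or minor snRNPs also named Phf5a, which encodes a subunit of SF3b. Of its 28 genes, 18 rose and 2 fell in WT (median 0.63), the 2 being Snrnp48 and Zmat5. Of 12 that recognise the 3′ splice site or branch point, 10 rose and none fell in WT (median 0.68), with U2af1 at 2.03 ± 0.10. The 21 genes of the later catalytic steps were mixed, with 8 higher and 4 lower in WT (median 0.13), Bcas2 at 0.90 ± 0.08 and Syf2 at -1.03 ± 0.09. All of these are to be read against 36.9% and 40.1% of all genes called higher and lower.

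Of 12 genes for SR protein kinases, phosphatases and transport factors, 2 rose and 8 fell by 24 h in WT (median -0.45), and 2 rose and 7 fell in cKO. Clk1, a nuclear kinase of SR proteins, averaged 75.3 ± 2.13 TPM in WT at 24 h and 239 ± 15.8 TPM at 0 h (-1.75 ± 0.11, adjusted p = 7e-17). Srpk2, a cytoplasmic one, fell by 1.61 on the log2 scale and Clk4 by 1.30. The 2 that rose, named after their values were seen, were Tnpo3, which imports SR proteins, at 0.77 ± 0.10 and Ppp2ca, a phosphatase subunit, at 0.85 ± 0.12. Of 42 other regulators, 24 rose and 11 fell in each genotype (median 0.54 in WT), with Pcbp1 at 1.65 ± 0.10 and Rbm5 at -1.41 ± 0.09.

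Between the genotypes, no member of the 4 families was called at any time in edgeR's quasi-likelihood test. Over all tested genes, 0.445% were called at 0 h, 0.82% at 4 h, 0.183% at 8 h and 0.105% at 24 h. Of the 48 genes, 1, 6, 8 and 0 had an unadjusted p under 0.05 at 0, 4, 8 and 24 h. The matching shares of all tested genes are not given here, so these counts are not read as a result. The lowest adjusted p was 0.63 at 0 h, 0.108 at 4 h, 0.141 at 8 h and 1 at 24 h. DESeq2 called 1 member at 4 h, Srsf11, and none at the other times. The median log2 fold change, cKO over WT, was 0.06, -0.03, -0.11 and -0.02 at 0, 4, 8 and 24 h. When 1 mouse was left out it ranged between 0.02 and 0.11 at 0 h, -0.06 and 0.01 at 4 h, -0.17 and -0.04 at 8 h, and -0.0517 and -0.0031 at 24 h. At 24 h all 11 tested Snrp genes lay between -0.03 and 0.17. Libraries of the 2 genotypes did not overlap in CPM for 10 genes at 0 h (13.5% of all genes), 4 at 4 h (16%), 3 at 8 h (10.5%) and 9 at 24 h (13.5%).

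The closest to a call at 4 h was Srsf11, an SR-related factor, with 99.8, 89.7 and 66.0 TPM in cKO mice, against 95.2, 135 and 142 TPM in WT mice (-0.57 ± 0.16, adjusted p = 0.108). The groups overlapped. Srsf11 was called without mouse 4 (-0.72, adjusted p = 0.0399) and without the filter on low counts (-0.57, adjusted p = 8.7e-05). At 24 h the means were 154 ± 2.29 TPM in cKO and 147 ± 3.78 TPM in WT. At 8 h it was Sf3b4, with 71.8, 74.0 and 75.4 TPM in cKO mice, against 66.5, 32.6 and 59.0 TPM in WT mice (0.46 ± 0.13, adjusted p = 0.141). The lowest of these was again mouse 5. Sf3b4 was called without the filter on low counts (0.48, adjusted p = 0.0164), and no member was called without the 3 libraries that lay apart. Srsf12, with 1.36, 2.04 and 1.02 TPM in cKO mice, against 0.240, 1.02 and 0.460 TPM in WT mice at 4 h, had the widest difference of the 48 genes at that time (1.36 ± 0.52, adjusted p = 0.255).

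**Figure D5:**
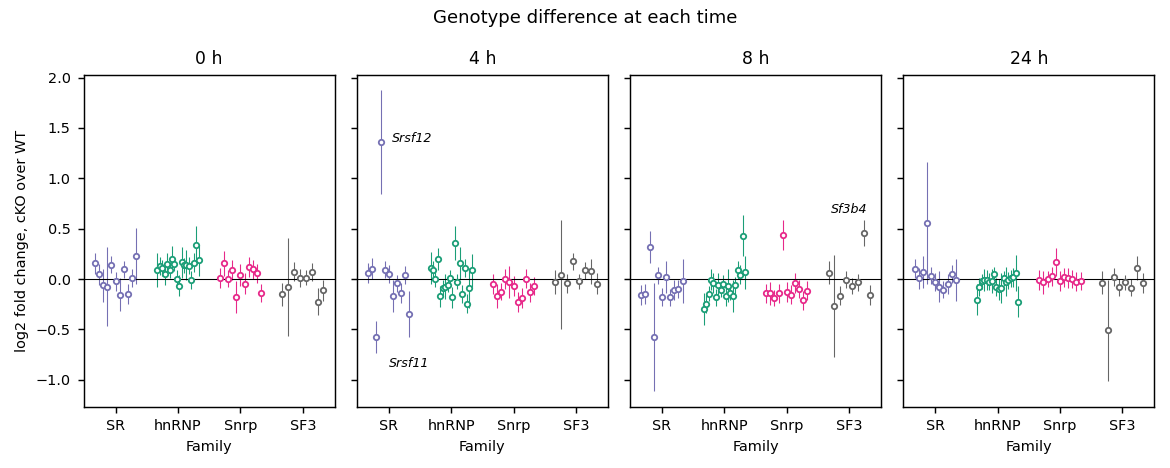
Fitted log2 fold change of cKO over WT for the 48 tested genes at each time, by family, with bars of 1 SE and open symbols because none has an adjusted p under 0.05. Srsf12 at 4 h, at 1.36, lies farthest from 0, and all Snrp genes at 24 h lie between -0.03 and 0.17.

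The interactions, which ask whether the change over time differed between cKO and WT, gave no call among the 48 genes either (edgeR; all genes, 0.00872% for 4 h, 0.00872% for 8 h and 0.0174% for 24 h, each over 0 h). Unadjusted, 7, 9 and 0 of the 48 had a p under 0.05, again without the share of all genes beside them, and DESeq2 called none. The lowest adjusted p was that of Sf3b4 at 8 h, whose rise over 0 h was larger in cKO by 0.68 ± 0.18 (adjusted p = 0.269). Hnrnpa1, the most abundant gene at 24 h, differed by -0.21 ± 0.13 in its 24 h change, and Snrpd1 by -0.06 ± 0.15. Among the lists of related genes, 2 calls were made between genotypes, at 0 h and 4 h (all genes, 0.445% and 0.82%). Aqr, a helicase-like spliceosome protein, was higher in cKO at 0 h, with 31.6, 33.8 and 34.4 TPM in cKO mice against 18.8, 24.2 and 24.0 TPM in WT mice (0.54 ± 0.11, adjusted p = 0.00891). Ppp2ca was lower in cKO at 4 h, with 31.3, 25.8 and 29.2 TPM in cKO mice against 35.6, 38.0 and 44.2 TPM in WT mice (-0.49 ± 0.12, adjusted p = 0.033).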

How the data were processed

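RNA was measured in 24 Smart-seq2 libraries, 3 mice in each of 8 groups of genotype and time, with groups, mouse numbers and times taken from the labels. The mice are separate animals. The authors deposited RSEM expected counts and TPM per gene, per the file headers. STAR, RSEM, DESeq2 and mm10 are named in the submitters' processing notes, with versions not given in the sources used here. TPM sums to 1 fixed value per library, so a level is a share of the RNA counted.

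The expected counts were rounded to whole numbers for the tests. In R 4.3.3, genes were filtered with filterByExpr, scaled with TMM, and tested with edgeR 4.0.16 (quasi-likelihood, robust, 1 mean per group, all 24 libraries in 1 fit), with Benjamini-Hochberg adjustment at 0.05 over 11470 genes. Log2 fold changes are fitted, and the SE is their size divided by the square root of F. The procedure was tested on simulated data. Sequencing depth was 5846265 to 9700397 counts per library, of which the ribosomal RNA gene Rn45s took 7.39 to 20.6%. Values of 3 mice limit the precision, and counting adds most error to genes of a few TPM. Smart-seq2 does not mark strand, and 23 of the 49 genes overlap another annotated gene, so reads of overlapping genes cannot be told apart there. Levels shown per mouse are TPM.

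The same mice gave all times, per the labels, so the mouse number pairs libraries over time. The mean correlation of deviations within a mouse was between -0.008 and 0.089. With other mice of the same genotype at other times it was between -0.045 and 0.004. The gap was widest for mouse 3, at 0.089 within against -0.045 with the others. The time comparisons and interactions were refitted with the mouse as a block.

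Alternatives were DESeq2 1.42.0, its size factors in edgeR, library totals, no filter, a filter of 5 CPM in 3 libraries, removal of Rn45s, only the groups compared, limma 3.58.1 on log2(TPM + 1) and log2(TPM + 0.1), leaving out 3 libraries that stand apart, and leaving out each mouse. Genes given in full were, in each family, up to 3 called genes with the largest increase and decrease at 24 h over 0 h in WT with a mean of at least 10 TPM, the gene with the highest level, genes called between genotypes, and the 2 largest called increases and decreases in the other time comparisons. Further members were picked for description after their values were seen. The members and lists were chosen with earlier results of these data known. A further list of marker genes is not reported here.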

Additional observations from a re-analysis of the deposited data

How the results depend on the processing

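Over the 17 comparisons and the alternatives run, no call changed sign, and the total number of members called moved by more than 1.5 times in the following cases. The split of higher and lower calls moved further with library totals: for 24 h over 8 h in WT it was 26 higher and 6 lower, in place of 13 and 10. For cKO over WT at 4 h, where no member was called, 1 was called without the filter on low counts (Srsf11, -0.57, adjusted p = 8.7e-05), 1 by DESeq2 (Srsf11, adjusted p = 0.0203), and 0 to 1 when 1 mouse was left out (1 without mouse 4). For cKO over WT at 8 h, 1 was called without the filter (Sf3b4, 0.48, adjusted p = 0.0164). Without the filter 22168 genes were tested in place of 11470. For 24 h over 8 h in cKO, library totals gave 30 calls (26 higher and 4 lower) in place of 18. In the paired fit with the replicate block, 41 members were called at 24 h over 0 h in WT (38 higher and 3 lower) and 39 in cKO, and the interactions gave 0. The block ended the calls of Hnrnpf (24 h over 0 h), Hnrnpul2 (4 h over 0 h), Sf3a1 (8 h over 0 h) and Srsf11 (24 h over 8 h) in WT and of Srsf12 (8 h over 4 h) in cKO. Of the 42 calls at 24 h over 0 h in WT, 38 held in every alternative, as did 39 of 39 in cKO, but only 13 of 23 at 24 h over 8 h in WT and 13 of 18 in cKO. Removing the filter moved the median of the 48 genes at 24 h over 0 h in WT to 1.07, against 0.91 with it. Depth limits genes such as Srsf12 and Sf3a2, at under 4 TPM, most. Values at 24 h over 8 h in WT ranged between -0.49 and -0.24 for Sf3b1, -0.50 and -0.24 for Srsf7, and 0.29 and 0.65 for Sf3a1, and were called in every alternative.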
